A study of Mus musculus with 31 samples.

Results

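The 10 genes described here take up, digest, store and export lipid and cholesterol. They are Cd36, Msr1 and Lpl (uptake), Lipa and Npc2 (the lysosome), Soat1 and Plin2 (storage), and Abca1, Abcg1 and Apoe (export). They were chosen by name and found by Ensembl identifier among 47069 genes measured in 31 single cells. The cells came from the right lung lobes of adult mice of the Csf1r-GFP genotype, aged 10 weeks, whose chest cavity had been opened in a sham operation 7 days earlier. In these animals a green fluorescent protein reports Csf1r, the gene of the receptor for the growth factor CSF1. The labels call the cells macrophages sorted as CD45+, CSF1R-GFP+ and F4/80+, and list Ly6G without a sign. All 31 cells form 1 group, no animal is named and no other group was analysed here, so the cells were treated as 1 sample. No test between conditions was possible, and every value below describes these cells.

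Macrophages take in modified lipoproteins and fatty acids through scavenger receptors and break lipoprotein cholesterol esters down in the lysosome. Free cholesterol then leaves the lysosome with the help of the carrier NPC2. It is esterified again for storage in lipid droplets, or is handed to apolipoproteins by membrane transporters. Oxysterols formed from surplus cholesterol switch on the liver X receptors (LXR), and Abca1, Abcg1 and Apoe are well-known targets of these receptors. In the lung, alveolar macrophages clear surfactant lipid, and they depend on the transcription factor PPAR gamma for this.

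Of the 31 cells, 20 held at least 1000 FPKM of Lyz2, the lysozyme gene of monocytes and macrophages, and are called Lyz2-high below. The cells next to this line were C7 at 1229 FPKM and D10 at 553 FPKM. FPKM, the unit of level used here, divides a gene's fragments by transcript length and by the library's depth, and 1 FPKM was the minimum for a gene to count as present. Lyz2-high cells had 521492 to 4059833 expected counts (median 1591648) and 87.4 to 95.6% of them on protein-coding genes. The other 11 cells had 120835 to 1592301 (median 413337), and in 10 of these libraries only 32.8 to 61.6% of counts were on protein-coding genes. Csf1r was present in 20 of 20 Lyz2-high and 7 of 11 other cells, Ptprc (CD45) in 19 and 5, Adgre1 (F4/80) in 15 and 1, and Ly6g in 7 and 0. Of 10 alveolar macrophage markers, 9 were at 0 in every cell, among them Siglecf, Marco, Car4 and Pparg, and Chil3 was present in 12 Lyz2-high and 2 other cells. The alveolar type 2 markers Sftpc, Sftpb, Sftpa1 and Lamp3 were at 0 in every cell. Cdh5, Kdr, Cldn5 and Gpihbp1 of endothelium were also at 0 throughout, and Pecam1 was present in 2 and 10 cells.

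The promoters of 4 members that were all higher in one set of cells (described further on) are shown to let their sequences be compared. They are 250 bases before the RefSeq start, 5′ to 3′ on the gene's strand, which is the minus strand in all 4 (RefSeq, GRCm38.p6). Capitals mark matches to 6 motifs searched on both strands. Of these, 4 are general promoter elements, namely the E-box with the letters CACGTG, the CCAAT box, the TATA box with the letters TATAAA and the GC box with the letters GGGCGG. The other motifs are direct repeats bound by nuclear receptors. The LXR-type repeat was searched as a half-site GGTNA that is followed, after any 5 bases, by a half-site with the letters GGTCA. The PPAR-type repeat was searched as the half-site AGGNCA repeated after any 1 base. The windows are chr7:19699189-19699438 for Apoe (the outermost of 3 windows listed for this gene), chr19:34527475-34527724 for Lipa, chr4:53159896-53160145 for Abca1 and chr5:17835897-17836146 for Cd36. The Cd36 window lies inside the gene's annotated span, downstream of its farthest start.
Apoe: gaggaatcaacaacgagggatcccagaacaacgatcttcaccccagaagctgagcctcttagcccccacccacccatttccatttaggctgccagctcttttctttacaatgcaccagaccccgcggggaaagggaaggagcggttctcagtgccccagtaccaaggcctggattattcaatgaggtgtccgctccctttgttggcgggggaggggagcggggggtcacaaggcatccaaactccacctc
Lipa: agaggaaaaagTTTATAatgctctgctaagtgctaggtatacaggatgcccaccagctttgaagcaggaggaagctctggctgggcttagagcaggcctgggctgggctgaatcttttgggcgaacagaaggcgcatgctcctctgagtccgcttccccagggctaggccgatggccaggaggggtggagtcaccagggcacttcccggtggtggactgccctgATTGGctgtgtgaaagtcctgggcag
Abca1: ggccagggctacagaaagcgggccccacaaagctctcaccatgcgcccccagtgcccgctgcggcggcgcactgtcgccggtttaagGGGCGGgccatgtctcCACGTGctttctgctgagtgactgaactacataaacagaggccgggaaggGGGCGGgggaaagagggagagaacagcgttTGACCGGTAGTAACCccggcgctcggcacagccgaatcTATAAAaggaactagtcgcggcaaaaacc
Cd36: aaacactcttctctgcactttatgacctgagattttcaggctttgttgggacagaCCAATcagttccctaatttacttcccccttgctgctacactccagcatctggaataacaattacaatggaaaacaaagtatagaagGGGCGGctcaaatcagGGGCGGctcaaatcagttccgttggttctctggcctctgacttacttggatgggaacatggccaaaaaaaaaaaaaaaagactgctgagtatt
The Abca1 window held the LXR-type repeat on the opposite strand, at 67 to 53 bases before the start, together with a TATA box at 29 bases, an E-box at 147 bases and GC boxes at 163 and 97 bases. The LXR-type repeat was found in 0.177% of 32851 promoter windows of the same length (58 windows). The letters of that motif were chosen with the Abca1 sequence known, so its match is no independent finding. The Apoe window shown held none of the 6 motifs, while another of its 3 windows held a TATA box on each strand, at 96 and 100 bases, and the PPAR-type repeat, found in 0.338% of all windows, was in none of the 4. Lipa held CCAAT on the opposite strand at 26 bases and a TATA box on the opposite strand at 239 bases. Cd36 held CCAAT at 195 bases and GC boxes at 109 and 93 bases. CCAAT was found in 33.8%, the GC box in 32.7%, the TATA box in 12.4% and the E-box in 6.02% of all windows. A match describes the letters only. Plin2, another member higher in those cells, had CCAAT at 73 bases, and its window is not shown. Windows were matched for 7 of the 10 members, and none was matched for Lpl, Msr1 and Abcg1.

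Lyz2-high cells held a median of 5 of the 10 genes (range 3 to 6) and the other cells a median of 2 (range 1 to 4). With every cell thinned to 120829 counts the medians were also 5 and 2. Npc2 was present in 20 of 20 Lyz2-high cells, Apoe in 18, Lpl in 16 and Plin2 in 15. Msr1 was present in 9, Lipa and Soat1 in 7 each, Abca1 in 4, Cd36 in 3 and Abcg1 in 2. Thus 4 of 10 members were present in at least 50% of Lyz2-high cells, against 13.2% of 10818 genes found in any of them, and 1 of 10 in every cell, against 1.32%. In the other cells 1 of 10 members, Lpl, reached 50%, against 18.1% of 10943 genes. By median FPKM in the Lyz2-high cells the order was Apoe (1980.2), Npc2 (234), Plin2 (229) and Lpl (4.63), and the other 6 had a median of 0. Npc2 and Plin2, neighbours in this order, differed by far less than their spread over cells (SD 276 and 698 FPKM). In expected counts scaled to equal library totals (CPM), which are not divided by transcript length, their medians were further apart, at 719 and 241.5.

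**Figure D1:**
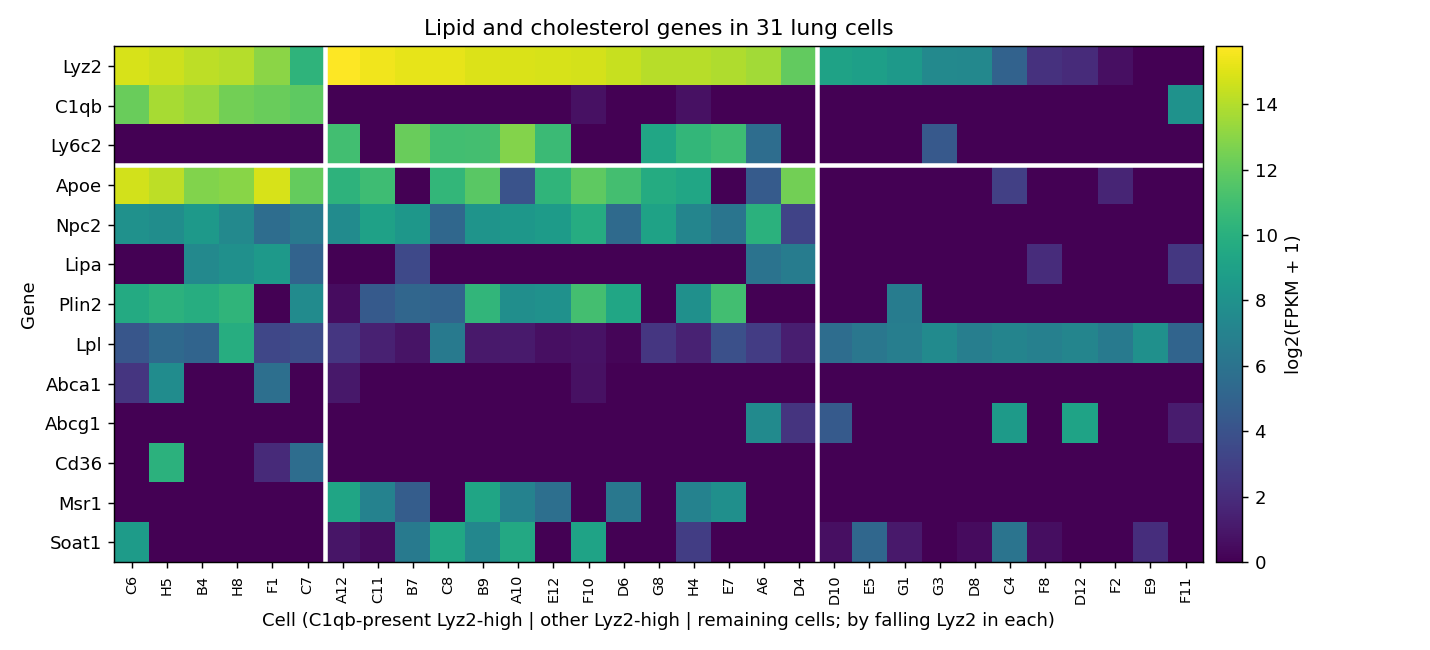
Level of Lyz2, C1qb, Ly6c2 and the 10 lipid genes (rows) in each of the 31 cells (columns), as log2(FPKM + 1) by colour. White lines part the 6 C1qb-present Lyz2-high cells, the 14 other Lyz2-high cells and the 11 remaining cells. Npc2 is above 0 in all 20 Lyz2-high cells and in none of the 11, whereas Lpl is above 0 in all 31.

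Among the uptake genes, the scavenger receptor gene Msr1 was present in 9 Lyz2-high cells and Cd36 in 3. Cd36 encodes a receptor for oxidised lipoproteins and long-chain fatty acids (ENSMUSG00000002944, GRCm38 chromosome 5, 17781690 to 17888801). It measured 1119.8 FPKM in cell H5, 48.45 in C7 and 2.65 in F1, and was at 0 in the other 28 cells, so its share of the Lyz2-high cells was 15% (exact Clopper-Pearson 95% interval 3.21 to 37.9%). Nearly all Cd36 signal therefore came from H5, where it rested on 11103 expected counts. Msr1 encodes the class A scavenger receptor for modified lipoproteins (ENSMUSG00000025044, chromosome 8, 39581685 to 39642673). It was present in 9 Lyz2-high cells (45%, 23.1 to 68.5%) at 24.1 to 609 FPKM, with a median of 126 among those 9, and was at 0 in the other 22 cells. Msr1 was highest in A12 and B9, at 609 and 607 FPKM. For both genes 0 of the 11 other cells allows a share of up to 28.5% by the same exact interval, and these intervals cover counting error over cells only.

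Lpl, which encodes the secreted lipase that frees fatty acids from lipoprotein triglyceride, was found more widely but at levels that differed between libraries (ENSMUSG00000015568, chromosome 8, 68880491 to 68907448). In the Lyz2-high cells it ran from 0.14 FPKM in D6 through a median of 4.63 to 919 in H8, and C8 came next at 88.6 FPKM. In the other 11 cells it ran from 32.9 in F11 through a median of 105 to 240.4 in E9. The ranges overlapped, but 17 of 20 Lyz2-high cells lay below the lowest of the 11. Lpl counts were fractional (further than 0.001 from a whole number) in 25 of 31 cells, 14 of them Lyz2-high, which is how reads shared with another gene appear in these counts. The length implied by its count and FPKM was also shorter in the 10 libraries with few protein-coding counts (2186 to 2692 bases, median 2453) than in Lyz2-high cells (median 3926). The part that reads shared with other genes or these libraries' make-up had in the Lpl level there was not tested. The endothelial genes Cdh5, Kdr, Cldn5 and Gpihbp1 were at 0 in these libraries, while Pecam1 was present in 10 of 10, at 1.02 to 26.6 FPKM.

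Of the lysosomal genes, Npc2 was present in every Lyz2-high cell and Lipa was sparse. Npc2 encodes the soluble carrier that binds cholesterol inside the lysosome (ENSMUSG00000021242, chromosome 12, 84754562 to 84773152). It was present in 20 of 20 Lyz2-high cells (100%, 83.2 to 100%) at 8.19 FPKM in D4, a median of 234 and 1057 in A6. It was at 0 in all 11 other cells, where 0 of 11 allows up to 28.5%. No Lyz2-high cell overlapped with the others in Npc2, and at 10 or more expected counts it was also found in 20 cells. The share of all genes that part these cells as fully was not computed. Of the 11 other cells, 10 were libraries with few protein-coding counts, and their part in this was not tested. Lipa encodes lysosomal acid lipase, which cleaves cholesterol esters and triglyceride (ENSMUSG00000024781, chromosome 19, 34492318 to 34527474). It measured 352 FPKM in F1, 238 in H8, 171 in B4, 97.4 in D4, 62.7 in A6, 32.2 in C7 and 10.1 in B7, and was at 0 in the other 13 Lyz2-high cells (35% present, 15.4 to 59.2%). Among the remaining cells it was at 4.92 FPKM in F11 and 3.01 in F8. Cells without Lipa thus still held Npc2 in every Lyz2-high case.

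Of the storage genes, Plin2 was found in more Lyz2-high cells than Soat1. Plin2 encodes perilipin 2, a coat protein of lipid droplets (ENSMUSG00000028494, chromosome 4, 86648386 to 86670060). It was present in 15 Lyz2-high cells (75%, 50.9 to 91.3%), with a lowest value of 0, a median of 229 and a highest of 2147 FPKM in F10, and in 1 other cell, G1, at 98.9 FPKM. F10, E7, B9, H8 and H5 all held over 1000 FPKM of Plin2, and F1, D4, A6 and G8 held 0. Soat1 encodes the enzyme that esterifies cholesterol for storage (ENSMUSG00000026600, chromosome 1, 156424525 to 156474331). It measured 725 FPKM in A10, 673 in C8, 571 in F10, 409 in C6, 157 in B9, 87.7 in B7 and 6.31 in H4, which are 7 of 20 Lyz2-high cells (35%, 15.4 to 59.2%). All 7 of these cells also held Plin2, against 5.25 expected if the genes were independent. Of all pairs of genes present in 3 to 19 Lyz2-high cells, 14.5% exceeded independence by at least 1 cell. Those pairs were not matched to Soat1 and Plin2 by the number of cells that held each gene. In the other cells Soat1 was at 66.95 FPKM in C4, 37.3 in E5, 3.23 in E9 and 1.09 in G1. It was between 0 and 1 FPKM in D10, D8 and F8 of these and in the Lyz2-high cells A12 and C11. Soat1 overlaps the model Gm37648 (to be experimentally verified) in GENCODE M21, and 8 of the 16 cells with Soat1 counts had fractional ones. Of the 9 Lyz2-high cells with Soat1 counts, 1 had a fractional count. Over all genes, 42.3% of counts above 0 were fractional. The library kit does not mark strand, so reads of overlapping genes cannot be told apart.

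The transporter genes were sparse and the apolipoprotein gene abundant. Abca1 encodes the transporter that hands cholesterol and phospholipid to lipid-poor apolipoprotein A-I (ENSMUSG00000015243, chromosome 4, 53030787 to 53159895). It measured 201 FPKM in H5, 54.4 in F1, 4.33 in C6 and 1.06 in A12 (20% of Lyz2-high cells, 5.73 to 43.7%), 0.65 FPKM in F10 from 12 expected counts, and 0 in all other cells. Abcg1 encodes a transporter that exports cholesterol to mature high-density lipoprotein (ENSMUSG00000024030, chromosome 17, 31057675 to 31117988). It measured 189 FPKM in A6 and 4.28 in D4 among Lyz2-high cells (10%, 1.23 to 31.7%), and 564 in D12, 385 in C4, 21.5 in D10 and 1.33 in F11 among the others. No cell held both transporters and independence gives 0.77 of 31, a difference of under 1 cell. The 2 highest Abcg1 values, D12 and C4, lay in libraries with few protein-coding counts. Abcg1 overlaps the ribosomal RNA model Gm25447 in the annotation, and whether reads of that model add to it was not tested.

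Apoe encodes apolipoprotein E, which macrophages secrete and which takes up exported cholesterol (ENSMUSG00000002985, chromosome 7, 19696109 to 19699188). It was present in 18 Lyz2-high cells (90%, 68.3 to 98.8%) at a lowest value of 0 in B7 and E7, a median of 1980.2 and a highest of 29000.3 FPKM in F1. In the other cells it was present in C4 at 6.92 and F2 at 2.09 FPKM. Cells A10 and A6 held little Apoe, at 15.7 and 22.4 FPKM, and the remaining 16 Lyz2-high cells held at least 652 FPKM. Apoe at 29000.3 FPKM exceeded the Lyz2 level of 8443 FPKM in the same cell F1. A member at 0 counts in a Lyz2-high cell could still have been there at up to 0.739 to 5.75 CPM (expected counts scaled to equal library totals), by the limit of 3 counts in the deepest and shallowest of these libraries.

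The Lyz2-high cells were then set apart by C1qb, a complement gene of tissue macrophages, which was present in 6 of them (B4, C6, C7, F1, H5 and H8) and below 1 FPKM in 14. Members and other genes present in at least 3 Lyz2-high cells were compared, which left out Abcg1. Of these 9 members, 6 were higher in the C1qb-present cells by at least 2 in mean log2(FPKM + 1), against 10.9% of 5740 genes. These were Apoe, Lipa, Lpl, Cd36, Abca1 and Plin2. Msr1 was the 1 member lower by as much, against 9.7% of the same genes. The members' median difference was 2.52, over the 9 that were present in at least 3 cells, and the median of all genes was -0.02. Cd36 and Abca1 reached 3 cells through the C1qb-present set and Msr1 through the C1qb-absent set. The minimum itself thus favoured a difference in these members. Without cell H5 the count of members past 2 in either direction was 4 in place of 7.

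Apoe ran from 4306 through a median of 13592 to 29000.3 FPKM in C1qb-present cells and from 0 through 1227 to 5419 FPKM in the rest. The mean log2(FPKM + 1) of Apoe was 13.60 ± 1.14 (SD over 6 cells) against 8.33 ± 4.30 (14 cells), a difference of 5.27 that was larger than either SD. The sets overlapped through C7, at 4306 FPKM, and D4 of the C1qb-absent cells, at 5419. Lipa, found in 4 of 6 and 3 of 14 cells, had medians of 102 and 0 FPKM and a difference of 3.66 in mean log2 values beside SDs of 3.90 and 2.38. Lpl was present in 6 of 6 and 10 of 14, with medians of 25.2 and 1.60 FPKM and a difference of 3.32 beside SDs of 2.38 and 1.64. Apoe and Lpl thus differed by more than the spread over cells, and Lipa by less than the larger spread.

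Cd36 was present in 3 of 6 and 0 of 14 cells, where 0 of 14 allows up to 23.2%. Its difference of 2.94 became 1.5 without H5, the 1 cell whose omission took it under 2. Abca1 was present in 3 of 6 and 1 of 14 cells, and its difference of 2.52 became 1.51 without H5 and 1.89 without F1. Plin2 was present in 5 of 6 and 10 of 14, with medians of 864 and 128 FPKM. Its difference of 2.17 lay within SDs of 4.01 and 4.23 and was under 2, at 1.68 to 1.82, without any 1 of 8 cells (A12, A6, B4, C6, D4, G8, H5 and H8).

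Msr1 went the other way. It was present in 0 of 6 C1qb-present cells, which allows up to 45.9%, and in 9 of 14 of the rest. The median over the 14 was 66.6 FPKM, and the difference in mean log2 values was -4.58. Leaving out each cell in turn gave -4.93 to -4.22. Soat1 was present in 1 of 6 and 6 of 14 cells, with a difference of -1.85 that became -3.29 without C6, the single C1qb-present cell that held it. Npc2 was present in all cells of both sets, with medians of 194 and 308 FPKM and a difference of -0.31 within SDs of 1.09 and 1.94. Abcg1 was present in 0 of 6 and 2 of 14.

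**Figure D2:**
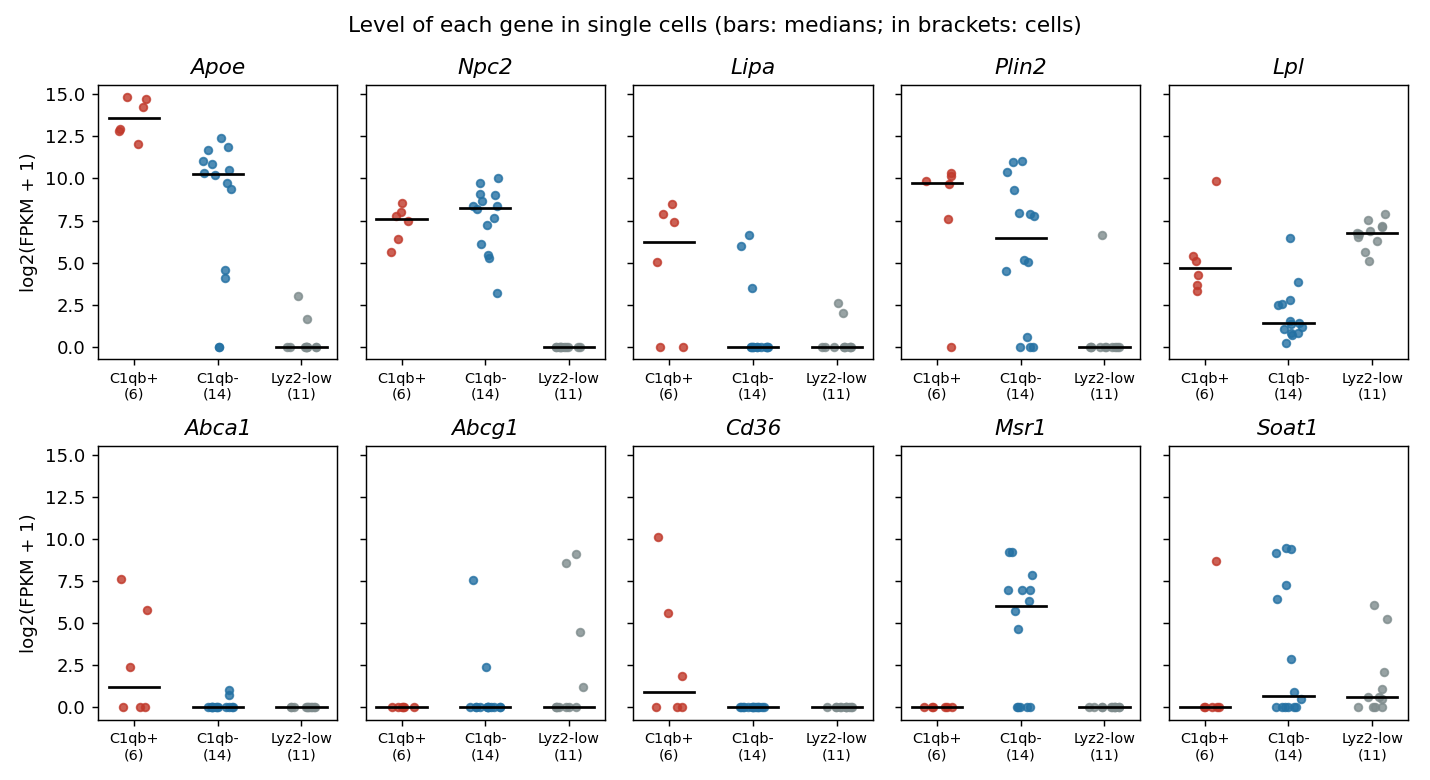
Level of each gene as log2(FPKM + 1) (vertical axis) in the 6 C1qb-present Lyz2-high cells (C1qb+), the 14 C1qb-absent ones (C1qb-) and the 11 cells under 1000 FPKM of Lyz2 (Lyz2-low). Points are cells and bars are medians, and Apoe lies highest in C1qb+ cells while Msr1 is above 0 in C1qb- cells alone.

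Several other cell type genes moved with this split. The summed level of C1qa, C1qb, C1qc, Mrc1 and Pf4 was 8607 to 35151 FPKM in C1qb-present cells and 0 to 174 in the rest. C1qb defines the sets, at 3729 to 13306 FPKM in the C1qb-present cells, so the sums differ in part by construction. C1qa alone was at 1946 to 7564 FPKM in C1qb-present cells, and C1qa and Pf4 were at 0 in the rest. The classical monocyte genes Ly6c2, Ccr2, Fn1, Plac8, Hp and S100a4 were summed too. Their summed level was 2.02 to 804 FPKM in C1qb-present cells and 1238 to 25591 FPKM in the rest. Ly6c2, Plac8 and Hp were below 1 FPKM in every C1qb-present cell. Ccr2 went the other way by median, at 457 FPKM in C1qb-present cells (4 of 6) and 220 in the rest (12 of 14). Median depth was 2177839 counts in C1qb-present and 1433691 in C1qb-absent cells. With all cells thinned to equal depth, Lpl was found in 5 of the 14 C1qb-absent cells in place of 10 and Soat1 in 7 in place of 6. The other counts per set were the same, though the 1 C1qb-absent cell with Abca1 was F10 in place of A12. The part of depth in the differences of level was not tested. Across the 20 Lyz2-high cells, Spearman's rho between total counts and FPKM was 0.45 for Abca1 and for Cd36, 0.20 for Apoe and 0.10 for Msr1.

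The Ly6C antigen gene Ly6c2, a marker of classical monocytes, was found in 10 Lyz2-high cells, all of them C1qb-absent, so splitting by it reuses the same cells. Of the members, Msr1 was higher by at least 2 in Ly6c2-present cells, against 7.61% of 5740 genes, and Apoe and Lipa were lower, against 8% of them. Msr1 was present in 7 of 10 Ly6c2-present and 2 of 10 Ly6c2-absent cells, a difference of 3.74. Apoe had medians of 750.4 and 6275 FPKM and a difference of -5.73. Lipa was present in 2 of 10 and 5 of 10 cells, a difference of -2.60.

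Co-detection of the members was described by the number of Lyz2-high cells with both genes of a pair beside the number that independence gives. Of 45 pairs, 9 involve Npc2, which every cell held, and 36 could differ from independence. Of these 36, 14 were found together in more cells than expected and 22 in fewer, where 49.9% of 15666003 pairs of genes present in 3 to 19 of these cells were found together in more. At least 1 cell more than expected was seen in 4 pairs (background 14.5%) and at least 1 cell fewer in 10 (background 11.7%). Abcg1 was present in 2 cells and lies outside that background. The background was not matched for the number of cells that held each gene, on which the size of a shortfall or excess depends. The members' pairs therefore cannot be weighed against it.

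The largest shortfall was that of Lipa with Msr1, found together in 1 cell (B7) against 3.15 expected. Lipa with Soat1 was found in 1 cell against 2.45, also B7, and Plin2 with Abcg1 in 0 against 1.5. Cd36 with Msr1 was found in 0 cells against 1.35, but Cd36 was in no C1qb-absent cell and Msr1 in no C1qb-present one, so this restates that split. Apoe with Msr1 was found in 7 cells against 8.10. The pairs found together more often were Plin2 with Soat1 (7 against 5.25), Abca1 with Cd36 (2 against 0.60, in F1 and H5), Lipa with Abcg1 (2 against 0.70, in A6 and D4) and Plin2 with Msr1 (8 against 6.75). Spearman's rho of FPKM over the 20 cells was -0.55 for Apoe with Msr1, -0.53 for Lipa with Msr1, 0.53 for Apoe with Abca1 and 0.38 for Apoe with Lipa. Within the 14 C1qb-absent cells the same values were -0.17, -0.48, 0.23 and -0.05, so the 3 relations of Apoe were weaker or near 0 inside that set. Plin2 with Soat1 was found there in 6 cells against 4.29, and Lipa with Msr1 in 1 against 1.93. These cells share 1 group and differ in depth, and differences of 1 cell are small counts.

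**Figure D3:**
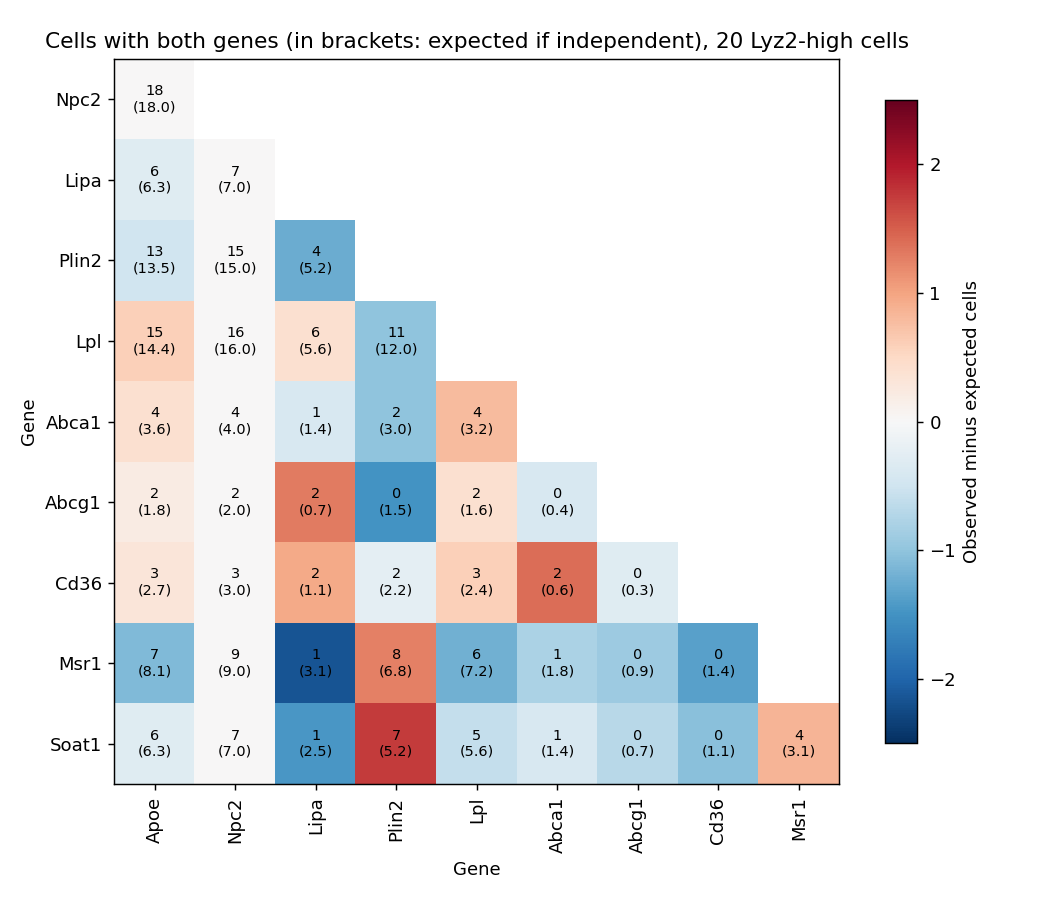
Each square gives the number of the 20 Lyz2-high cells with both genes of a pair, with the number expected under independence in brackets, and its colour the difference (red more, blue fewer). The row of Msr1 is blue with Lipa, Cd36, Lpl and Apoe and red with Plin2.

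Over all 31 cells, pairs also take in the difference between Lyz2-high and other cells. Apoe and Npc2 shared 18 cells where 12.9 were expected, and Npc2 and Plin2 in 15 against 10.3. Plin2 and Abcg1 shared 0 cells against 3.10, and 4 of the 6 cells with Abcg1 were not Lyz2-high. Lipa with Msr1 (1 against 2.61), Lipa with Soat1 (1 against 3.19) and Plin2 with Soat1 (8 against 5.68) departed in the same direction as within the Lyz2-high cells.

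The deposited FPKM of some members rest on transcripts of different length in different cells, which can be read from a cell's count, FPKM and total. Soat1 showed the widest span. The implied length was 325 bases in A10, 342 in C8 and 346 in C6, 1539 in B9 and 1608 in F10, and 8179 in H4 and 8198 in B7, where the annotated transcripts run from 366 to 8371 bases. The order of cells changes with it, since A10 held 725 FPKM from 553 expected counts (236 CPM) and B7 held 87.7 FPKM from 739 (719 CPM). By CPM F10 was the highest, at 918. Soat1 was lower in C1qb-present cells by 2.65 on the log2(CPM + 1) scale, past the size of 2 that it missed in FPKM.

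Plin2 implied lengths of 436 bases in E7 to 1715 in B7, and E7 held 2053 FPKM at 895 CPM where B9 held 1343 FPKM at 2002. Plin2 differed by 1.8 between C1qb-present and C1qb-absent cells in log2(CPM + 1), under the size of 2. Msr1 implied 1287 bases in C11 and 3470 in B7. In A12 and B9, which were level in FPKM, Msr1 was at 1143 and 2102 CPM. Apoe stayed at 861 to 1032 bases in Lyz2-high cells, Lipa at 2778 to 2792 and Npc2 at 3049 to 3090. Npc2 has annotated transcripts of 728 to 3299 bases, so its FPKM in each of the 20 cells rested on the longer annotated forms. Abca1 implied 6684 bases in H5 and 10073 to 10126 in F1, C6 and A12. Which transcripts the cells held was not tested, as the data give values per gene.

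**Figure D4:**
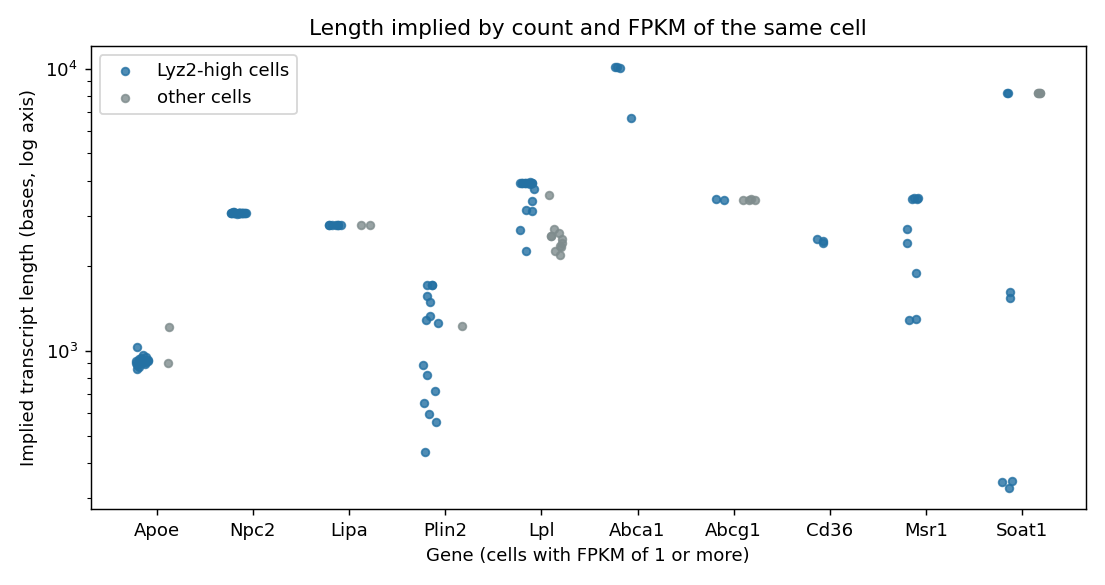
Transcript length in bases (log axis) implied by the expected count, FPKM and total of each cell, for each gene in cells with at least 1 FPKM. Points are cells, in blue Lyz2-high and in grey other cells. Soat1 falls into sets near 325 to 346, 1539 to 1608 and 8179 to 8212 bases, and Apoe, Npc2 and Lipa stay in narrow bands.

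Other lipid genes were followed through 9 lists of 97 genes in all. Lyz2-high cells held a median of 20.5 of them (range 12 to 33) and the other cells 9 (range 3 to 17), 73 of 97 were present in some Lyz2-high cell and 14 in at least 50% of these cells. Among uptake genes, the scavenger receptor family member Cd68 was present in 17 of 20 Lyz2-high cells at a median of 681 FPKM, the lysosomal receptor Scarb2 in 10 and the lipoprotein receptor Lrp1 in 9. Of the 14 lysosomal genes 7 were present in at least 50% of Lyz2-high cells. The saposin precursor gene Psap was present in 20, the membrane protein genes Lamp1 and Lamp2 in 19 and 16, and the acid sphingomyelinase gene Smpd1 in none.

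Of the droplet genes, Plin3 was present in 12 Lyz2-high cells, the cholesterol ester hydrolase gene Nceh1 in 9 and Soat2 in 7, at medians of 7.64, 54.3 and 1.66 FPKM among those that held them. Plin4, Plin5, Cidec, Cideb and G0s2 were at under 1 FPKM in every cell. Of apolipoprotein and export genes, Apoc2, the cofactor of lipoprotein lipase and a neighbour of Apoe, was present in 9 Lyz2-high cells at up to 3257 FPKM. It was present in 1 of 6 C1qb-present and 8 of 14 C1qb-absent cells, where Apoe was highest in the former. Abca7 was present in 4 Lyz2-high cells, the phospholipid transfer gene Pltp in 3, and Apoc1, Apoc4, Apob, Apoa1 and Lcat in no cell.

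Genes that sense or make sterols were sparse. The LXR beta gene Nr1h2 was present in 6 Lyz2-high cells, Insig1, which holds back sterol synthesis, in 7, and the sterol-responsive factor gene Srebf2 in 5, while Pparg was in no cell. Of sterol synthesis genes, Fdps was present in 5, Idi1 and Cyp51 in 3 each, and Hmgcs1 and Dhcr7 in none. Of fatty acid genes, Acadl, Hadhb and Acsl4 were present in 6, 5 and 4 Lyz2-high cells, and Fabp1, Acsl3 and Cpt2 in no cell. Of genes reported in lipid-laden macrophages, the cathepsin gene Ctsb was present in 20 of 20, Cd9 in 19 and the galectin gene Lgals3 in 17. Lgals3 was present in 3 of 6 C1qb-present and 14 of 14 C1qb-absent cells, and Cd9 also in 11 of 11 other cells.

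The genes most like each member across the 20 Lyz2-high cells were sought by Spearman's rho of FPKM among 2070 genes present in at least 8 of them, for the 5 members that were. Among the genes most like Apoe were the calmodulin gene Calm2 (0.78) and the fractalkine receptor gene Cx3cr1 (0.78), and 3.72% of genes reached 0.5. Msr1 was most like Tmem131 (0.76), the peroxiredoxin gene Prdx5 (0.76) and Msrb1 (0.72), and 4.11% reached 0.5. Calm2 and Cx3cr1 were present in 6 of 6 C1qb-present cells and in 9 and 3 of the 14 others. Tmem131 was present in 0 of 6 and 8 of 14. Prdx5 was present in 4 of 6 and 13 of 14, and Msrb1 in 2 of 6 and 12 of 14. The part of the C1qb split in these likenesses was not tested.

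Plin2 was most like Usmg5 (0.72), Cnbp (0.68) and H2-DMb1 (0.63), with 1.16% of genes at 0.5 or more. Npc2 was most like Foxn2 (0.67), Erp29 (0.65) and mt-Nd5 (0.65), with 1.3%, and Lpl like Vdac3 (0.68), Hspa1a (0.63) and Hpgd (0.62), with 1.06%. Hspa1a has a near-identical copy, Hspa1b, whose reads can be split with it. These are the highest of 2070 values each over 20 cells that share their libraries, and no p is given.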

How the data were processed

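Single cells were captured on a Fluidigm C1 chip, and polyadenylated RNA was amplified with a SMARTer kit and made into Nextera XT libraries, per the labels' protocols. CASAVA 1.8, Trimmomatic, RSEM and the GRCm38 build were used, per the submitters' processing notes, and for the aligner, settings and annotation the sources used here give nothing. A table of RSEM expected counts (estimated, not always whole) and a table of FPKM values, scaled to transcript length and depth, were deposited by the authors. Of 75 columns of counts, 44 matched no sample label and were not used. No molecular identifiers were used, so intervals cover counting error only. Results for 47069 genes were computed with Python 3.11.15, numpy 2.4.6, pandas 2.3.3 and scipy 1.17.1, and figures drawn with matplotlib 3.10.9. Symbols were found for 46488 identifiers. Coordinates are 1-based, from GENCODE M21 on the same build, and promoters from RefSeq.

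The members and lists were chosen with earlier results of these data known. Presence is 1 FPKM or more, differences are of mean log2(FPKM + 1) with a pseudocount of 1, and the size called is 2. Genes named are the members, the cell type markers, the 3 genes of each lipid list in most Lyz2-high cells, those in no cell, and the 3 genes most like each member. The result of 1 gene that this rule names is not reported here. For thinning, counts were rounded and drawn to 120829 per cell (seed 1), the total of the shallowest. CPM are expected counts scaled to equal totals, and the implied length is CPM over FPKM, in kilobases, given in bases. Differences and likeness were tested on simulated data, and pair counts were not. Alternatives were other FPKM and count minimums, thinning, other Lyz2 minimums, libraries with at least 80% coding counts, pseudocounts of 0.1 and 10 and CPM. Leaving out each Lyz2-high cell was added after the data had been seen.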

Additional observations from a re-analysis of the deposited data

How the results depend on the processing

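The median number of members per Lyz2-high cell, 5, became 3 at a presence minimum of 50 FPKM and 6 at an expected count of 1 or more. The median in the other cells, 2, became 1 at 5 and at 50 FPKM and 3 with libraries of at least 80% coding counts, which left 1 such cell, F11. The 14 pairs found together in more cells than independence gives became 22 with a Lyz2 minimum of 100 FPKM, which adds low-coding libraries. The 7 members past a log2 difference of 2 became 3 at a pseudocount of 10 (Apoe and Lipa higher, Msr1 lower) and 4 to 8 with each Lyz2-high cell left out in turn, with 4 without H5. CPM also gave 7, with Soat1 lower in place of Plin2 higher. Of the 15 genes most like a member, 6 stayed with Pearson's r of log2 values, 7 with genes present in at least 3 cells as candidates, 6 with a Lyz2 minimum of 100 FPKM and 5 with one of 5000 FPKM. No result turned its direction among those called, but the difference in Npc2 between C1qb-present and C1qb-absent cells, -0.31, became 1.69 with a Lyz2 minimum of 100 FPKM. Cells with a member present moved past their interval in 6 of 90 combinations of member and setting for Lyz2-high cells. No paired analysis was possible because the cells form 1 group and share no replicate numbers with another.

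With 31 cells of 1 group and no animal named, none of these values can be set against the spread between animals. Sparse members, Cd36, Abca1 and Abcg1, rest on 3, 4 and 2 Lyz2-high cells.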

Other observations

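Apoe was also ordered along the cells that carried neither C1qb nor Ly6c2. In these 4 Lyz2-high cells (C11, D4, D6 and F10) Apoe measured 1865, 5419, 2096 and 3718 FPKM, where the 10 Ly6c2-present cells ran from 0 to 3380 FPKM (median 750.4) and the 6 C1qb-present cells from 4306 to 29000.3 FPKM. Neighbouring sets overlapped, and the Ly6c2-present and C1qb-present sets did not. The share of all genes that part those sets as fully was not computed. Plin2 did not follow this order, with 2147 FPKM in F10, 643 in D6, 21.6 in C11 and 0 in D4. Lpl was low in all 4, at 0.14 to 1.68 FPKM.

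Of the 3 oxysterol enzyme genes, each was found in few cells. Ch25h, whose product is an oxysterol that acts on LXR, was present in 2 of 6 C1qb-present and 0 of 14 C1qb-absent cells. Cyp27a1, a mitochondrial sterol hydroxylase gene, was present in 3 of 6 and 1 of 14, at up to 539 FPKM, and Cyp7b1 was in no Lyz2-high cell and in 1 of the 11 other cells, at 18.9 FPKM. Cell F11, with Lyz2 at 0 and C1qb at 258 FPKM, held Lpl at 32.9, Lipa at 4.92 and Abcg1 at 1.33 FPKM, and Apoe and Npc2 at 0.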
